A study of Homo sapiens with 6 samples.

Results

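The 9 genes described here encode hormones that the liver secretes under stress or fasting, together with the receptor pair that receives one of them. They are GDF15, FGF21, INHBE, STC2, STC1, ANGPTL4 and FGF19, and the receptor genes FGFR4 and KLB. They were taken by exact symbol from the 43424 gene symbols of the count tables, in which all 9 were found.

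Hepatocytes answer shortage and damage partly by changing what they release. GDF15 is a distant member of the TGF-beta family that lowers food intake through GFRAL, a receptor of the hindbrain, and FGF21 is a fasting and stress hormone that needs the co-receptor beta-klotho, encoded by KLB. FGF19 is the human hormone that is released after bile acid uptake. It acts on hepatocytes through FGFR4 with beta-klotho and lowers bile acid synthesis. Stanniocalcins are secreted glycoproteins that block the pappalysin proteases of the insulin-like growth factor system, INHBE encodes the inhibin beta E chain that forms activin E, and ANGPTL4 inhibits lipoprotein lipase. GDF15, FGF21, STC2 and INHBE are known targets of ATF4, the transcription factor of the integrated stress response.

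RNA was measured in HepG2, a hepatocellular carcinoma line in long use as a stand-in for hepatocytes. The tamarixetin group held 3 libraries of cells given 10 µM tamarixetin, a methylated quercetin, for 24 h. The control group held 3 libraries of cells, also labelled 24 h, with no treatment named. A confluency of 90% is given for both groups. All cells are labelled wild type and came from 1 cell line, so the replicates are cultures and not donors. Tamarixetin was given in medium with 1% serum, against 10% during growth. The labels name neither a vehicle nor, separately, the serum of the control cultures, so an effect of the compound and one of the medium cannot be told apart here. Libraries held 11980585 to 16168855 counts. Because only the 3′ end of each transcript was sequenced, long genes gain no extra counts. Levels compared between genes are still approximate, because reads can be lost where genes overlap. Levels are given as CPM, counts scaled to the TMM-adjusted size of the library.

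Markers that define hepatocytes were present: ALB stood at 1873 ± 59.6 CPM with tamarixetin and 3322 ± 111 CPM in control (SD, n = 3 each). Of 12 hepatocyte markers 11 were tested, 10 fell and none rose, with a median log2 fold change of -0.58 and a summed level of 9643 to 9913 CPM with tamarixetin and 16578 to 17169 CPM in control. TM4SF4 was the marker with too few counts to be tested. Of 12 markers of fibroblasts, endothelium and leukocytes, 7 were tested, 3 fell and none rose, with summed levels of 802 to 858 CPM with tamarixetin and 946 to 1052 CPM in control. LYZ, which encodes lysozyme, made up most of that sum at 781 ± 28.6 CPM with tamarixetin and 936 ± 52.7 CPM in control. CD3E, which defines T cells, had no count, and PTPRC, which defines leukocytes, had 4 counts in all tamarixetin and 5 in all control libraries. The other markers that fell, COL1A1 and PDGFRB, each lost the call when 1 of 2 libraries was left out (adjusted p of 0.0528 and 0.0580 for COL1A1 and 0.0655 and 0.0907 for PDGFRB, edgeR). Over all genes tested, 43.7% were called, 22.4% higher and 21.3% lower. Of the markers tested, 90.9% were called for hepatocytes and 42.9% for the other cells, the latter near the share of all genes. The part that the fall of hepatocyte genes plays in the results below was not tested.

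Of the 9 genes, 6 had enough counts to be tested, 4 changed and 2 did not pass the test. GDF15 and STC2 rose, and FGFR4 and KLB fell. Those same 4 genes had groups that did not overlap. Against this, 43.7% of the 13198 genes tested changed in either direction, 22.4% higher and 21.3% lower, and the groups did not overlap in 50.5%. With so many genes changed, the count of 4 in 6 is no result about these genes. The median log2 fold change was -0.16 over the 6 genes tested and 0.00038 over all genes tested. FGF21, FGF19 and STC1 had too few counts for the test.

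**Figure D1:**
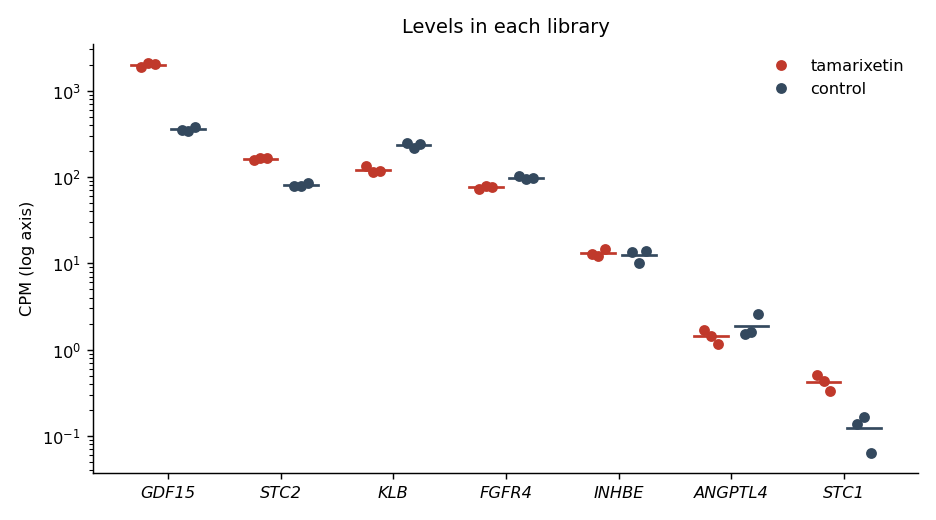
Levels of 7 genes in every library, in CPM on a log axis; each point is 1 library and each short line the mean of 3. GDF15 and STC2 lay higher in all tamarixetin libraries (red) than in all controls (dark blue), KLB and FGFR4 lay lower, INHBE and ANGPTL4 overlapped, STC1 rests on 18 counts with tamarixetin and 5 in control, and FGF19 and FGF21, which had libraries without a count, are not drawn.

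The promoters of 4 of these genes are shown because they set GDF15 and STC2, which rose, beside FGF21, which was not detected, and KLB, which fell most among the genes tested. Each runs from 250 bases before to 50 bases after the RefSeq start (GRCh38.p14), 5′ to 3′ in the direction of the gene. Capitals mark matches to 8 short motifs that were searched on both strands.
GDF15 promoter, chr19:18385908-18386207, plus strand: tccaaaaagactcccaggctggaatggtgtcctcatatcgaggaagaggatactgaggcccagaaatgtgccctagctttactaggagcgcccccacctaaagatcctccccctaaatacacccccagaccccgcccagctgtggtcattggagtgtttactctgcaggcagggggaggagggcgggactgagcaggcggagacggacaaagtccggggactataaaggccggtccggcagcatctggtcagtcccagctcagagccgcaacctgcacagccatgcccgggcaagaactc
STC2 promoter, chr5:173328365-173328664, minus strand: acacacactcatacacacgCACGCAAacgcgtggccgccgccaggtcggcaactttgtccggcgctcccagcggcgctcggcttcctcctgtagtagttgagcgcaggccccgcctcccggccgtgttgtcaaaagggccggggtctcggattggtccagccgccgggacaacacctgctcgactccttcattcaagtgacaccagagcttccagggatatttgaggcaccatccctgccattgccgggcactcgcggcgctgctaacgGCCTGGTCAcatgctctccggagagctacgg
FGF21 promoter, chr19:48755274-48755573, plus strand: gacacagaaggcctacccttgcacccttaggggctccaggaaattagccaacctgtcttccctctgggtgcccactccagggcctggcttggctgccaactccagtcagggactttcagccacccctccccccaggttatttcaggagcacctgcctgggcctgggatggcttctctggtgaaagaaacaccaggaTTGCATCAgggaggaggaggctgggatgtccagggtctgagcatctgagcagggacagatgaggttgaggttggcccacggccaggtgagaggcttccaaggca
KLB promoter, chr4:39406680-39406979, plus strand: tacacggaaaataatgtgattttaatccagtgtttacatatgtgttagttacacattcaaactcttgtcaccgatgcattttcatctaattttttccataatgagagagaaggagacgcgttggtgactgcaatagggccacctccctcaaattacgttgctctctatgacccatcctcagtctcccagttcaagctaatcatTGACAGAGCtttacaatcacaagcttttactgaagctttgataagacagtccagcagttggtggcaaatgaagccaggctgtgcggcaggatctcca

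The ATF4 and C/EBP element, searched as TGATGNAA, was found in FGF21, at positions -54 to -47 from the start in reverse orientation, and in 3.62% of the 35116 promoters of the table. It was found in none of the other 6 promoters available for these genes (GDF15, STC2, KLB, ANGPTL4 and a pair for FGFR4). The antioxidant response element of NRF2, TGACNNNGC, matched STC2 at positions 20 to 28 and KLB at -47 to -39, and 13.3% of all promoters. The aryl hydrocarbon receptor element, TNGCGTG, matched STC2 at -231 to -225 and 5.51% of all promoters. The hypoxia element core ACGTG matched ANGPTL4 and the downstream FGFR4 promoter, against 21.4% of all; in FGFR4 it matched on both strands within the palindrome CACGTG, an E-box found in 7.26%. The full cyclic AMP element TGACGTCA (1.85% of all), the AP-1 element TGANTCA (7.71%) and the nuclear receptor element AGGTCA (13.8%) matched none of the 7. The GDF15 window held no match to any of the 8 motifs. A match in these windows is a string of letters and no measured site.

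GDF15 had the largest log2 fold change of the 6 genes tested. It stood at 1868, 2061 and 2011 CPM in the tamarixetin libraries, against 353, 337 and 376 CPM in the control libraries. All tamarixetin libraries lay far above all controls. The fold change was 5.56 (95% interval 5.30 to 5.84; log2 fold change 2.48, SE 0.035; Benjamini-Hochberg adjusted p = 2.22e-80, edgeR quasi-likelihood). Of the 13198 genes tested, 52 had a higher log2 fold change, and by p GDF15 was in place 3. By mean level GDF15 was in place 47 of all genes with tamarixetin and in place 396 in control. Its transcripts took 0.188%, 0.208% and 0.204% of all counts with tamarixetin and 0.0348%, 0.0334% and 0.0371% in control. These are bulk libraries, in which more cells with the transcript and more transcript per cell cannot be told apart. The gene lies on the plus strand of chromosome 19 (18386158 to 18389176), and the microRNA gene MIR3189 within it was listed at 0 in every library.

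The genes whose profile over the 6 libraries was nearest to that of GDF15 were IGFBP1, MT2A and AKAP12, with distances of 0.23, 0.29 and 0.32 (Euclidean, on centred log2 CPM with 0.5 added, among 10123 genes of at least 5 CPM). IGFBP1, an insulin-like growth factor binding protein that the liver secretes in fasting and stress, stood at 592 ± 10.1 CPM with tamarixetin and 111 ± 10.8 CPM in control (SD, n = 3 each). With only 2 groups, this likeness is mostly a likeness of fold change.

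STC2 followed GDF15 at a lower level. It had 155, 165 and 164 CPM with tamarixetin and 79.4, 79.5 and 84.4 CPM in control, with no overlap. The level was 1.99-fold higher (95% interval 1.86 to 2.13; log2 fold change 0.99, SE 0.050; adjusted p = 9.29e-34, edgeR quasi-likelihood, Benjamini-Hochberg). The spread was small, with a coefficient of variation of 3.37% with tamarixetin and 3.55% in control, where counting alone would give 2.12% and 2.95%. The nearest profiles were those of MPZL2, SLC23A2 and UGDH, at distances of 0.072, 0.072 and 0.085. STC2 lies on the minus strand of chromosome 5 (173314723 to 173328414).

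The other stanniocalcin, STC1, was close to the limit of detection. It had 8, 6 and 4 counts with tamarixetin and 2, 2 and 1 counts in control, which sums to 18 and 5. The ratio of the scaled sums was 3.68, with a 95% interval from counting error alone of 1.32 to 12.7. Every tamarixetin library held more counts than every control, yet without the filter on low counts the gene did not pass the test (adjusted p = 0.244, edgeR quasi-likelihood, Benjamini-Hochberg).

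FGF21 was not detected. It had 0 counts in all 6 libraries, which allows a level of up to 0.0722 CPM with tamarixetin and 0.0707 CPM in control (3 counts over each group of libraries). Among RefSeq genes whose symbols are in the count tables, none overlaps FGF21 (chromosome 19, 48755524 to 48758330). Its neighbour FUT1 had 3 to 8 counts per library. It was thus without signal in the libraries in which GDF15 averaged 1980 CPM with tamarixetin and 356 CPM in control, and no fold change can be given.

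INHBE did not pass the test. It had 13.0, 12.0 and 14.5 CPM with tamarixetin, against 13.3, 10.1 and 14.0 CPM in control, and the groups overlapped. The log2 fold change was 0.061 (SE 0.131, adjusted p = 0.741, edgeR quasi-likelihood, Benjamini-Hochberg), and its 95% interval of -0.20 to 0.32 leaves room for a fold of 0.872 to 1.25 but not for the size of the STC2 change. The 3′ end of INHBE (chromosome 12, 57455307 to 57458025) overlaps the lncRNA gene LOC124902947 by 584 bases, so reads there may be lost to both; that gene had 0, 10 and 6 counts with tamarixetin and 0, 0 and 1 in control. INHBC, which encodes the beta C chain and lies 3245 bases before INHBE, fell to 3.20 ± 0.860 CPM with tamarixetin, against 5.48 ± 0.875 CPM in control (log2 fold change -0.76, SE 0.224, adjusted p = 0.00315, edgeR quasi-likelihood, Benjamini-Hochberg). The count of INHBE over that of INHBC was 3.16, 3.86 and 6.07 with tamarixetin and 2.41, 2.20 and 2.22 in control.

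ANGPTL4 was low and did not pass the test. It had 1.67, 1.45 and 1.15 CPM with tamarixetin and 1.52, 1.58 and 2.57 CPM in control, from 60 and 82 counts in all. The groups overlapped, and 1 control library was far above the other two. The log2 fold change was -0.41 (SE 0.366, 95% interval -1.14 to 0.31, adjusted p = 0.385, edgeR quasi-likelihood, Benjamini-Hochberg), and without control replicate 3 it was -0.12. The coefficient of variation was 18.1% with tamarixetin and 31.1% in control, where counting alone would give 22.4% and 19.1%. The interval spans folds of 0.455 to 1.24, so a change within it was not detectable at this depth.

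**Figure D2:**
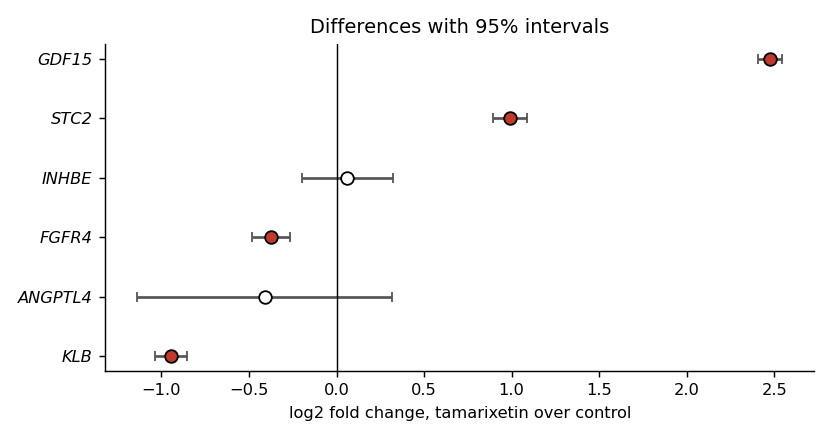
Log2 fold change, tamarixetin over control, of the 6 genes tested; bars are 95% intervals from edgeR's fit, and filled points passed an adjusted p of 0.05. GDF15 (2.48) and STC2 (0.99) lie right of 0, KLB (-0.95) and FGFR4 (-0.37) left of it, and the intervals of INHBE and ANGPTL4 cross it.

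In the FGF19 axis the receptors were well expressed and the ligand was not. FGF19 had 1, 1 and 0 counts with tamarixetin and 1, 0 and 1 in control. The sums of 2 and 2 lie under the limit of 3 counts, so no fold change is given.

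KLB, the co-receptor for FGF19 and FGF21, fell most among the 6 genes tested. It stood at 133, 113 and 118 CPM with tamarixetin and 245, 218 and 238 CPM in control, with no overlap. The level was 0.519-fold that of control (95% interval 0.487 to 0.554; log2 fold change -0.95, SE 0.047; adjusted p = 3.99e-34, edgeR quasi-likelihood, Benjamini-Hochberg). KLB (chromosome 4, plus strand, 39406930 to 39451533) ends 2591 bases before the RefSeq bounds of RPL9, a ribosomal protein gene that rose by 0.17 on the log2 scale. Its nearest profiles were KANK4, ICAM4 and MAL2, at distances of 0.13, 0.14 and 0.14.

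FGFR4, the receptor tyrosine kinase of the pair, fell by less. It had 73.2, 77.6 and 76.9 CPM with tamarixetin and 103, 93.9 and 98.1 CPM in control. No library crossed between the groups, and the log2 fold change was -0.37 (SE 0.055, 95% interval -0.48 to -0.26; adjusted p = 1.00e-08, edgeR quasi-likelihood, Benjamini-Hochberg). FGFR4 lies on the plus strand of chromosome 5 (177086915 to 177098144), and its nearest profiles were EPM2AIP1, AHSA2P and JUP, at distances of 0.048, 0.049 and 0.054.

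Ratios of counts within a library do not depend on scaling. KLB over FGFR4 was 1.81, 1.46 and 1.53 with tamarixetin, against 2.39, 2.32 and 2.42 in control, so the co-receptor was lower relative to the receptor in every tamarixetin library. GDF15 over STC2 was 12.0, 12.5 and 12.3 with tamarixetin, against 4.45, 4.24 and 4.45 in control. GDF15 alone made up 83.2% to 84.8% of the counts of the 9 genes with tamarixetin and 44.4% to 46.2% in control. These ratios were chosen after their values were seen and are given without a test.

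**Figure D3:**
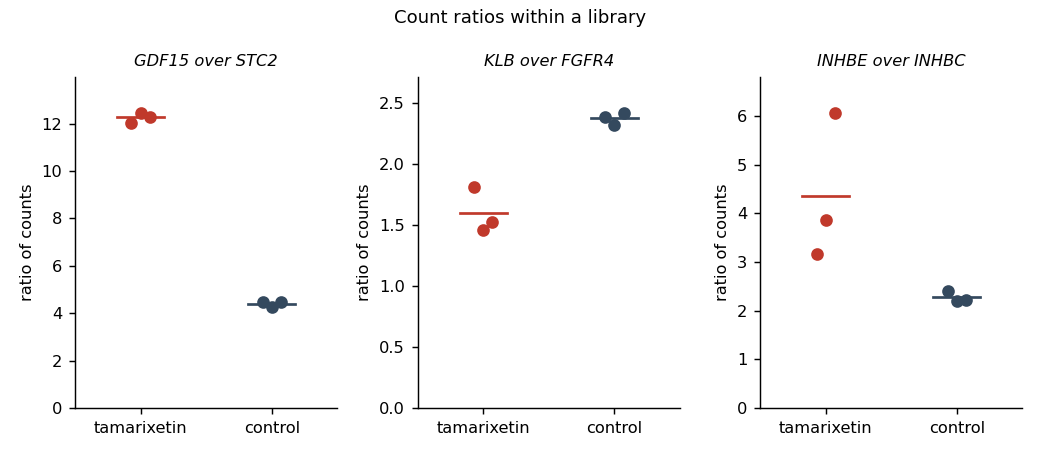
Ratio of the raw counts of gene pairs in each library, with the tamarixetin libraries left and the controls right; points are libraries, lines are means of 3, and each axis starts at 0. GDF15 over STC2 and INHBE over INHBC were higher in all tamarixetin libraries, and KLB over FGFR4 was lower.

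The order of the levels changed. With tamarixetin it ran GDF15, STC2, KLB, FGFR4, INHBE, ANGPTL4, STC1, FGF19 and FGF21. In control it ran GDF15, KLB, FGFR4, STC2, INHBE, ANGPTL4, STC1, FGF19 and FGF21. STC2 moved past both receptor genes. GDF15 was 12.3 times the next gene with tamarixetin and 1.52 times the next in control. Neighbours in the order had libraries that did not overlap, except FGF19 with FGF21 in both groups and STC1 with FGF19 in control.

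Genes known to act around these hormones were taken from 11 lists. Over all genes tested, 22.4% were called higher and 21.3% lower, which is the background for each list. Most genes of the ATF4 response rose: of 22 genes 20 were tested, 17 rose, none fell and 3 did not pass. The median log2 fold change was 0.44. The 3 that did not pass were ATF5 (-0.13), CEBPB (0.12) and DDIT4 (0.096). ATF4 itself stood at 688 ± 15.6 CPM with tamarixetin and 548 ± 1.74 CPM in control (log2 fold change 0.33, SE 0.034). SLC7A11, the cystine importer, rose by 1.65, PPP1R15A, which restores translation by removing the phosphate from eIF2alpha, by 1.56, and NUPR1, a stress cofactor, by 0.80. The folate enzyme MTHFD2 rose by 0.72, SESN2 by 0.63 and the pseudokinase TRIB3 by 0.58. GDF15 and STC2 thus had log2 fold changes of 2.48 and 0.99 beside this median of 0.44, while INHBE had 0.061. CHAC1 and ASNS had too few counts to be tested. ASNS lies within the bounds of another RefSeq gene, and ASNS counts can be lost where the reads fit both. Of 6 genes of the eIF2 kinases and their mitochondrial relay, EIF2AK2 rose by 0.22, EIF2AK1 and EIF2AK3 had log2 fold changes of -0.31 and -0.32, and OMA1, DELE1 and EIF2AK4 did not pass, with a median of -0.098. The call of EIF2AK3 was lost without tamarixetin replicate 1 (adjusted p = 0.122) or control replicate 3 (0.151, edgeR quasi-likelihood, Benjamini-Hochberg).

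Among receptors and other regulators of GDF15, GFRAL had no count in any library and its partner RET had 5 counts in all 6 libraries. Of 9 genes 7 were tested, 2 rose, 2 fell and 3 did not pass (median -0.033). The early gene EGR1 rose by 1.17 and NFE2L2, which encodes NRF2, by 0.25, while the proprotein convertase FURIN (-0.29) fell.

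Around the stanniocalcins, 6 of 8 genes were tested and the median was 0.098. IGFBP4, the binding protein that PAPP-A cleaves, rose to 106 ± 9.17 CPM with tamarixetin, against 52.2 ± 0.771 CPM in control (log2 fold change 1.02, SE 0.060). IGF2 fell (-1.22), at 1.30 ± 0.309 CPM with tamarixetin and 3.01 ± 0.509 CPM in control, and the other 4, PAPPA, IGFBP2, IGFBP5 and IGF1R, did not pass. PAPPA, which encodes PAPP-A, stood at 1.17 CPM with tamarixetin and 0.980 CPM in control.

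Genes of the activin and inhibin system split: all 16 were tested, 6 rose, 5 fell and 5 did not pass (median 0.034). The activin binder FST, follistatin, rose to 223 ± 2.59 CPM with tamarixetin, against 123 ± 2.94 CPM in control (log2 fold change 0.85, SE 0.044), and the co-receptor TGFBR3 (0.44) and the receptor ACVR1 (0.87) rose with it. SMAD3 (0.29) and SMAD7 (0.41) also rose. The chain gene INHBB rose too (0.39), at 13.6 ± 0.621 CPM with tamarixetin and 10.3 ± 1.02 CPM in control. Adjusted p was 0.0125 for INHBB and 0.0396 for SMAD7 (edgeR quasi-likelihood, Benjamini-Hochberg). The binder FSTL3 (-0.51) fell, as did the inhibin chains INHA (-1.46) and INHBC and the receptors ACVR1C (-1.77) and ACVR2A (-0.47). The calls of ACVR1C and ACVR2A were each lost when a library was left out, ACVR1C without tamarixetin replicate 3 (adjusted p = 0.0956) or control replicate 2 (0.0720) and ACVR2A without control replicate 3 (0.140, edgeR quasi-likelihood, Benjamini-Hochberg).

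FGF21 and ANGPTL4 are known targets of PPARalpha. Of 18 genes of PPAR signalling and fasting 15 were tested, 7 rose, 4 fell and 4 did not pass, with a median of 0.084. CPT1A, the entry enzyme of mitochondrial fatty acid oxidation, stood at 293 ± 7.44 CPM with tamarixetin and 75.3 ± 1.38 CPM in control (log2 fold change 1.96, SE 0.046). The lipid droplet protein PLIN2 (1.31) and the receptor gene PPARG (1.19) also rose. FABP1 (-0.79), ACADM (-0.36), HADHA (-0.15) and PPARD (-0.37) fell, and PPARD lost its call in 7 of the 13 alternatives (adjusted p up to 0.276, edgeR, without tamarixetin replicate 1). PPARA did not pass (-0.062). So ANGPTL4, at -0.41 with its wide interval, stood beside CPT1A and PLIN2, which rose.

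ANGPTL4, STC1 and STC2 are also induced by hypoxia in many cells. Of 16 hypoxia genes 15 were tested, 5 rose, 5 fell and 5 did not pass (median -0.064). ADM, which encodes adrenomedullin, rose by 1.27, the oxygen sensor EGLN1 by 0.84, EPAS1 by 0.43 and HIF1A by 0.33. P4HA1 (-0.84), PFKFB4 (-0.69), ARNT (-0.48), PDK1 (-0.34) and BNIP3 (-0.18) fell, with PDK1 lost without tamarixetin replicate 1 (adjusted p = 0.125, edgeR quasi-likelihood, Benjamini-Hochberg). CA9 and VEGFA did not pass. Among 12 genes of the angiopoietin-like family and the lipases, 8 were tested with a median of -0.26. ANGPTL2 rose by 1.22, and the hepatic lipase LIPC (-0.49) and the convertases PCSK6 (-0.57) and FURIN fell. LPL, the target of ANGPTL4, had 4 counts in each of 2 libraries and none in the others.

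On the receptor side, 16 of 17 genes of FGF signalling were tested, 5 rose, 4 fell and 7 did not pass (median 0.049). FGFR1 (-0.65) and FGFR3 (-0.35) fell beside FGFR4. FGFR1 stood at 90.8 ± 1.85 CPM with tamarixetin and 142 ± 2.47 CPM in control, so that 3 receptor genes and the co-receptor were lower. The adaptors GRB2 (-0.13) and GAB1 (-0.42) fell too, and PTPN11 rose by 0.27. GRB2 lost its call with library size scaling (adjusted p = 0.0522) and without tamarixetin replicate 2 (0.0941), and GAB1 without tamarixetin replicate 2 (0.0566) or control replicate 1 (0.0659, edgeR quasi-likelihood, Benjamini-Hochberg). Of 6 brakes of the ERK pathway in the list, 4 rose: DUSP6 by 1.08, SPRED1 by 1.02, SPRY4 by 0.92 and SPRY2 by 0.66. The remaining brakes, SPRY1 (0.19) and SPRED2 (0.069), did not pass. Also short of the threshold were the receptor genes FGFR2 (-0.44) and FGFRL1 (0.029), and FRS2 (-0.28), ETV4 (0.082) and ETV5 (-0.019). KL, which encodes alpha-klotho, had 1 count in all 6 libraries.

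FGF19 acts on bile acid genes. The list here also held FXR and transporters, so not all of its genes are targets of FGF19. Of the 12 genes in the list 8 were tested, 6 fell, none rose and 2 did not pass, with a median of -0.63. The 2 that did not pass encode the chains of a bile acid exporter, SLC51A (-0.77) and SLC51B (0.75). The bile acid receptor gene NR1H4, which encodes FXR, stood at 5.45 ± 0.318 CPM with tamarixetin and 16.5 ± 0.760 CPM in control (log2 fold change -1.60, SE 0.144). The rate-limiting enzyme gene CYP7A1 (-2.20, SE 0.567) was at 0.271 CPM with tamarixetin and 1.25 CPM in control. CYP8B1 (-1.05) was at 3.30 CPM with tamarixetin and 6.87 CPM in control, and CYP27A1 (-0.48) at 181 CPM with tamarixetin and 254 CPM in control. The FXR target NR0B2 (-0.26) and the phospholipid exporter ABCB4 (-0.35) also fell.

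Of 20 other proteins that the liver secretes with hormone-like action, 17 were tested, 5 rose, 8 fell and 4 did not pass (median -0.21). IGFBP1 rose by 2.42 and had the largest log2 fold change of these 17. Next were HAMP, which encodes the iron hormone hepcidin (1.32), and TSKU (1.22), with FGL1 (0.16) and SMOC1 (0.20) far behind. The calls of FGL1 and SMOC1 were lost in 4 and 2 of the alternatives. AHSG, which encodes fetuin-A, fell most in absolute level, at 1533 ± 22.4 CPM with tamarixetin and 2861 ± 22.3 CPM in control, and RBP4 and SERPINF1 both fell by 0.37.

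**Figure D4:**
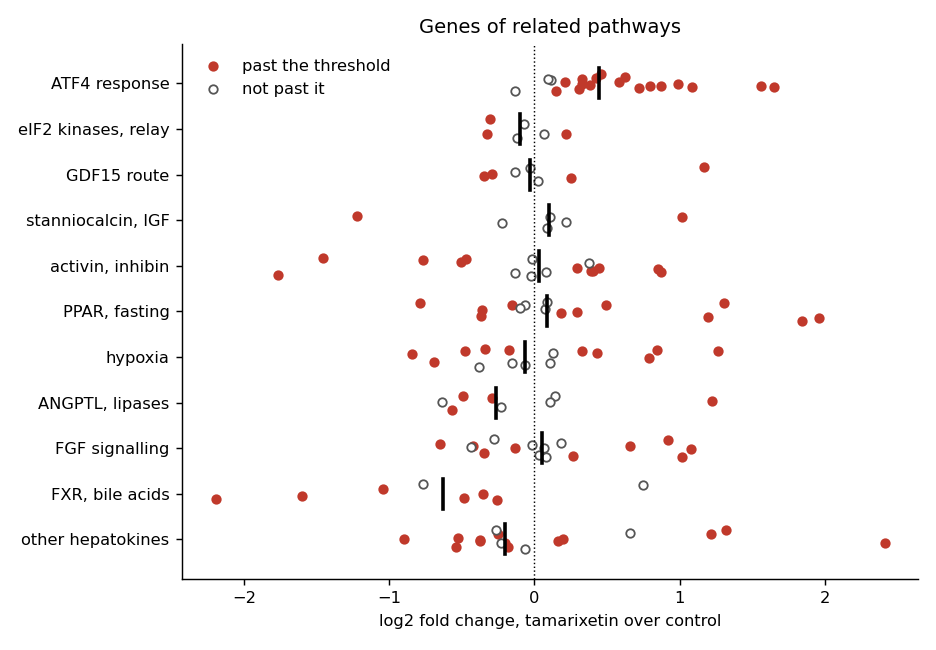
Log2 fold change, tamarixetin over control, of each tested gene in 11 lists around the hormones; filled points passed an adjusted p of 0.05, open points did not, and black bars are medians. The ATF4 response has a median of 0.44 with no gene called lower, and the bile acid genes a median of -0.63 with none called higher; other lists hold genes on both sides.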

How the data were processed

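Per the labels' protocols, libraries were made from HepG2 RNA with the QuantSeq 3′ kit (forward version). The submitters' processing notes list the tools featureCounts 2.0.6, STAR 2.7.10b and fastp 0.23.1 and the build GRCh38. The authors deposited whole-number read counts, not normalized, for each symbol. Not given in the sources used here were the annotation release, the strand setting and any molecular identifiers.

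Counts of all genes were fitted with edgeR 4.0.16 in R 4.3.3 (filterByExpr, TMM scaling, quasi-likelihood F test, group as the only term), and p was adjusted by the Benjamini-Hochberg method over 13198 genes, with a threshold of 0.05. SE is the log2 fold change over the square root of F. The code was tested on simulated data. P-values measure the spread between cultures labelled biological replicates. Intervals of low counts and the floor of 3 counts cover counting error only. Within groups, chi-square per gene between libraries was 2.36 to 3.54, above sampling noise, so no library was a copy. Coordinates and promoters are from RefSeq (GRCh38.p14, all 9 symbols matched, 6 with a promoter), strands from GENCODE.

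The genes, lists and motifs were chosen with earlier results of these data known. Named genes are the 9 genes, up to 6 per list with the smallest p, list genes that moved against the rest, the 3 nearest profiles and direct neighbours. ATF4, SPRY2, INHBB, SMAD7 and the list genes named as not tested or not passing were named outside this rule, after their values were seen. Some genes counted in the lists are not reported here by name. The 13 alternatives covered scaling, filters, DESeq2 1.42.0, the replicate number as a block and leaving out each library.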

Additional observations from a re-analysis of the deposited data

How the results depend on the processing

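GDF15, STC2, KLB and FGFR4 passed, with the same direction, under all 13 alternatives, and INHBE and ANGPTL4 passed in none that tested them. The range was 2.43 to 2.52 for the log2 fold change of GDF15, 0.96 to 1.03 for STC2, -1.02 to -0.90 for KLB, -0.41 to -0.34 for FGFR4 and -0.56 to -0.12 for ANGPTL4. The log2 fold change of INHBE, which was not called, turned to -0.0089 without tamarixetin replicate 3 and -0.066 without control replicate 2, and reached 0.15 without control replicate 3; the cause was not tested. The number of all genes called ran from 5091 to 5852. With at least 5 CPM in 3 libraries ANGPTL4 could not be tested. Of 1331 values of other genes and lists under the alternatives, 1297 kept their direction and side of the threshold (counts of lists: within 1.5 times), and none turned direction.

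With the replicate block, 4 of the genes and 5735 of all genes passed, and no call of the 9 genes changed. Same-numbered libraries did not deviate together (correlations of 0.00043, -0.036 and -0.020). Libraries with different numbers gave values as small, such as 0.037 for tamarixetin replicate 2 with control replicate 3. The check gave no sign of pairing but cannot exclude it, because counting error in genes of low level can hide a shared deviation.

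Depth limits FGF21, FGF19, STC1 and ANGPTL4.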

Other observations

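Genes next to the hormone genes held counts that moved as well; they were picked by position. LRRC25, known as a gene of myeloid cells, is on the minus strand and ends tail to tail with GDF15, with a gap of 1961 bases in RefSeq. It had 204, 242 and 223 counts with tamarixetin and 9, 7 and 5 in control (log2 fold change 5.01, SE 0.242, adjusted p = 4.63e-35, edgeR quasi-likelihood, Benjamini-Hochberg). The count of LRRC25 was 0.700%, 0.850% and 0.914% of that of GDF15 with tamarixetin and 0.176%, 0.173% and 0.0834% in control. The control shares rest on 9, 7 and 5 counts. Whether transcripts of GDF15 add to the counts of LRRC25 was not tested. SSBP4, the next gene beyond it, did not pass (log2 fold change 0.062).

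RAB11B-AS1, an antisense RNA on the other strand whose 3′ end lies 6 bases beyond that of ANGPTL4 in RefSeq, had 159, 124 and 76 counts with tamarixetin and 254, 191 and 262 in control (log2 fold change -0.96, SE 0.135). It held 5.43 to 6.20 times the counts of ANGPTL4 with tamarixetin and 6.39 to 11.5 times in control. LOC124901137, an lncRNA beside the start of STC2, had 21, 14 and 9 counts with tamarixetin and 4, 6 and 7 in control, and its call (adjusted p = 0.0319) was lost in 6 of the 12 alternatives that could test it (adjusted p up to 0.188, edgeR quasi-likelihood, Benjamini-Hochberg). LRRC25, RAB11B-AS1 and LOC124901137 do not overlap the hormone genes in RefSeq. The annotation release and strand setting of the counting are not given, so reads past an annotated end may have been counted for a neighbour. Whether this happened was not tested.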
